A study of Homo sapiens with 2 samples.

Results

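The genes described here are the aminoacyl-tRNA synthetases, the enzymes that join each amino acid to its tRNA. They were chosen by name, and all 36 listed genes were found among the 19198 genes of the deposited tables. Of these, 20 encode enzymes that work in the cytosol and 16, named with the suffix 2, encode enzymes that work in mitochondria. Messenger RNA was profiled in A549, an established human non-small-cell lung cancer (NSCLC) line, with 1 library per condition. A549-NICD1 cells overexpressed NICD1, the part of the NOTCH1 receptor that is cut free inside the cell on activation, and A549-Vector cells carried the vector alone. The labels give no other allele or treatment. For its stable lines the study describes lentiviral NICD1 constructs and antibiotic selection, so that forced NICD1 here stands in for receptor activation.

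Values are FPKM, that is, reads scaled by gene length and by library depth, at depths of 48528434 reads for A549-NICD1 and 48602848 for A549-Vector. NOTCH1, the gene whose product was overexpressed, was at 5.40 FPKM with the vector and 2865 FPKM with NICD1. Of 12 genes taken as A549 markers, 9 were under 1 FPKM in both libraries, and their summed level was 14.6 FPKM with the vector and 14.8 FPKM with NICD1. Among them KRT7, FGA and FGB were listed at 0 in both. All 7 genes taken as markers of HEK293, a kidney line of which the study also cultured a derivative, were at 1 FPKM or more in both, with summed levels of 264 FPKM and 244 FPKM. The labelled cell type is therefore not borne out by these markers, and their part in the results below was not tested.

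Synthetases of the cytosol charge the tRNAs used by cytosolic ribosomes, whereas those of mitochondria, also made from nuclear genes, charge the tRNAs encoded by mitochondrial DNA. Several enzymes of the cytosol, among them the lysine, arginine, leucine and glutamine enzymes, are held together with scaffold proteins in a multisynthetase complex. Many cytosolic synthetase genes are known targets of ATF4, the transcription factor of the amino acid and integrated stress responses, which binds C/EBP-ATF response elements in promoters. Lysyl-tRNA synthetase (KARS) and glycyl-tRNA synthetase (GARS) supply both compartments from 1 gene each. Mitochondria lack a glutaminyl enzyme and complete their Gln-tRNA with an amidotransferase.

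Cytosolic synthetase genes were mostly a little higher in A549-NICD1, and the mitochondrial genes were spread around 0. The log2 fold change was above 0 for 19 of the 20 cytosolic genes and for 9 of the 16 mitochondrial genes when the libraries were scaled, and for 15 and 3 when the deposited values were used without scaling. Among all 12449 genes with at least 1 FPKM in either library 48.9% were above 0 when scaled and 36.7% when unscaled. The median log2 fold change was 0.16 over the cytosolic genes, 0.01 over the mitochondrial genes and -0.01 over all genes tested. The compartments' medians differed by 0.15. The summed level as deposited, without scaling, went with the vector and with NICD1 from 1312 to 1381 FPKM for cytosolic genes and from 334 to 319 FPKM for mitochondrial genes. With scaling the log2 ratios of these sums were 0.13 and -0.01. With 1 library per condition, none of these differences has a replicate check and no p-value can be given. In bulk RNA, a change in which cells were present and a change in RNA per cell cannot be told apart.

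Few of these differences were large. At a log2 fold change of 0.25 or more, a fold of 1.19, only WARS and YARS were called among the 36 genes, that is 2 of 20 cytosolic and 0 of 16 mitochondrial genes, against 10.3% of all genes tested. At -0.25 or less no member was called (0 of 36), against 14.0% of all genes tested. Without scaling, 7.39% of all genes were above and 18.7% below these limits. No member reached 0.5 in either direction, which 3.05% of all genes did above and 3.99% below. The cytosolic genes thus lay on 1 side of 0 rather than far from it, with 12 of 20 above the third quartile of all genes tested, 0.12, and 1 of 20 below the first quartile, -0.14.

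The counting error was small against most cytosolic differences. Intervals of 95% (Clopper-Pearson, on the smallest whole reads that give the FPKM pair) lay wholly above 0 for 16 cytosolic and 3 mitochondrial genes, against 28.4% of 12448 genes. They lay wholly below 0 for 1 cytosolic and 3 mitochondrial genes, against 29.4%. These shares cover genes of all levels, with a median of 12.6 FPKM with the vector against 64.1 FPKM for the cytosolic genes. Genes with fewer reads have wider intervals, and the share among genes of like level was not computed. The members had 271 to 22100 such reads per library, and an interval reached on average 0.03 to 0.24 to each side on the log2 scale, depending on the gene. The counts of intervals are for the scaled libraries. Without scaling every interval lies 0.06 lower. Those of AARS, CARS, EPRS, HARS, KARS, NARS2 and YARS2 would then no longer lie wholly above 0. Those of IARS, AARS2 and LARS2 would lie wholly below 0. Reads carry no molecular identifiers and are not independent molecules, so these intervals hold counting error alone and say nothing of the variation between cultures.

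**Figure D1:**
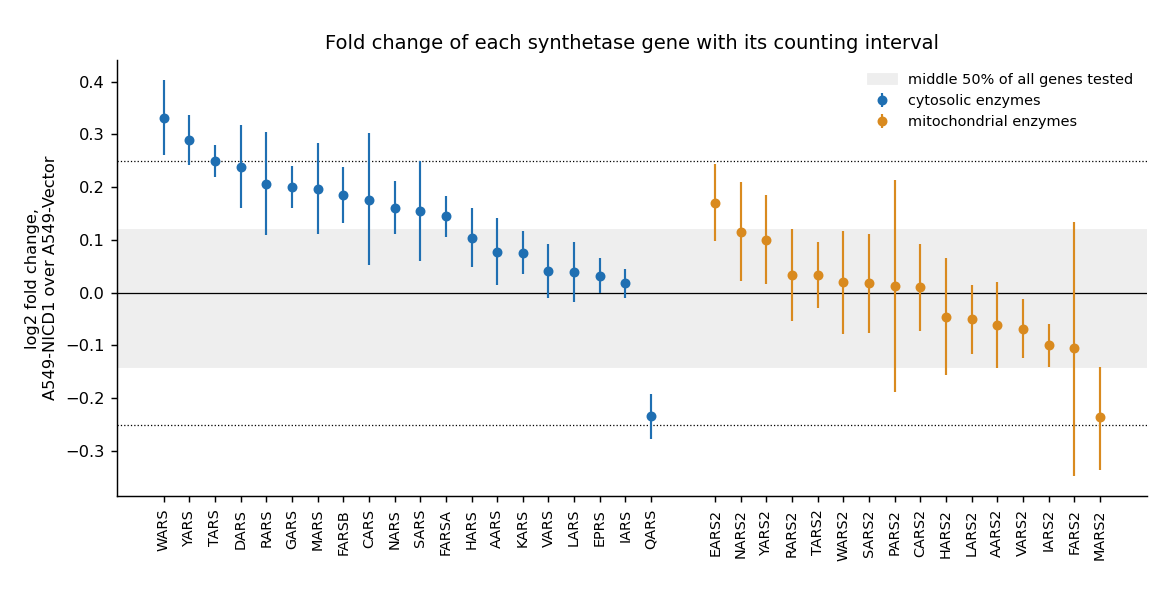
Log2 fold change of A549-NICD1 over A549-Vector (vertical axis) for each of the 36 genes, with 1 library per condition. Bars are 95% counting intervals, the grey band holds the middle 50% of all 12449 genes tested and the dotted lines mark 0.25 and -0.25. Apart from QARS the cytosolic genes lie above 0, from 0.02 to 0.33, while the mitochondrial genes run from -0.24 to 0.17. Without scaling all points lie 0.06 lower, and EPRS, IARS, LARS and VARS of the cytosolic and CARS2, PARS2, RARS2, SARS2, TARS2 and WARS2 of the mitochondrial genes fall below 0.

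The highest fold changes belonged to the cytosolic enzymes for tryptophan and tyrosine. WARS, tryptophanyl-tRNA synthetase (chr14:100333788-100376805, minus strand, GRCh38), was at 44.8 FPKM with the vector and 54.2 FPKM with NICD1. Its log2 fold change was 0.33 (interval 0.26 to 0.40), and 6.33% of all genes tested had a higher one. YARS, tyrosyl-tRNA synthetase (chr1:32775237-32818153, minus strand), was at 43.8 and 51.5 FPKM, which is 0.29 on the log2 scale (interval 0.24 to 0.34). By level both were among the lower cytosolic genes in A549-Vector. TARS, threonyl-tRNA synthetase (chr5:33440696-33469539, plus strand), was just under the limit at 0.2495 (interval 0.22 to 0.28), with 113 FPKM with the vector and 130 FPKM with NICD1. TARS was thereby the highest cytosolic gene in A549-NICD1, and FARSA the highest in A549-Vector.

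QARS, glutaminyl-tRNA synthetase (chr3:49095932-49105135, minus strand), was the only cytosolic gene with a fold change below 0 under scaling. It was at 70.4 FPKM with the vector and 57.6 FPKM with NICD1, which is -0.23 on the log2 scale (interval -0.28 to -0.19), with 15.1% of all genes tested lower. No other cytosolic gene had an interval wholly below 0 under scaling. Without scaling the interval of IARS would lie wholly below 0 as well. Among enzymes of the same complex, aspartyl-tRNA synthetase (DARS) had the highest log2 fold change, 0.24, and the lowest level. It was at 32.4 FPKM with the vector and 36.8 FPKM with NICD1.

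The cytosolic genes were split by membership of the multisynthetase complex. The 12 genes of enzymes outside the complex were all above 0 under scaling, with a median of 0.17 and 9 of them above the third quartile of all genes. The 8 enzyme genes of the complex had a median of 0.06, with RARS (arginyl, 0.21), MARS (methionyl, 0.20) and DARS above that quartile. The others were KARS at 0.08, LARS (leucyl) at 0.04, EPRS (glutamyl-prolyl) at 0.03, IARS (isoleucyl) at 0.02 and QARS at -0.23. Of the scaffold genes, AIMP2 was at 31.4 FPKM with the vector and 35.1 FPKM with NICD1, which is 0.22 on the log2 scale (interval 0.12 to 0.31). AIMP1 (22.2 and 21.9 FPKM) and EEF1E1 (58.7 and 57.9 FPKM) were both at 0.04, with intervals that held 0. These splits are descriptions of 2 libraries, and the difference between them was not tested.

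The structural classes of the enzymes, which differ in the fold of the catalytic domain, gave similar medians among cytosolic genes. The 9 class I genes had a median of 0.18, from QARS at -0.23 to WARS at 0.33, and 5 of 9 counting intervals lay wholly above 0. The 10 class II genes had a median of 0.16, from KARS at 0.08 to TARS, and all 10 counting intervals lay wholly above 0, against 28.4% of all genes. These counts are under scaling, and the share of all genes is not matched for level. Without it the intervals of CARS in class I and of AARS, HARS and KARS in class II would hold 0. EPRS carries a catalytic domain of each class and was left out of this split.

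Phenylalanyl-tRNA synthetase of the cytosol is built from an alpha subunit (FARSA) and a beta subunit (FARSB). FARSA was at 117 FPKM with the vector and 124 FPKM with NICD1, and FARSB at 46.0 and 50.3 FPKM. Their log2 fold changes of 0.14 and 0.18 had overlapping intervals (0.11 to 0.18 and 0.13 to 0.24), although the alpha subunit gene stood well above the beta subunit gene in both libraries. GARS was at 83.2 and 92.0 FPKM, which is 0.20 on the log2 scale, whereas KARS, the other enzyme that serves both compartments, was at 93.7 and 94.9 FPKM. CARS, cysteinyl-tRNA synthetase, was the lowest cytosolic gene, at 15.7 FPKM with the vector and 17.1 FPKM with NICD1.

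**Figure D2:**
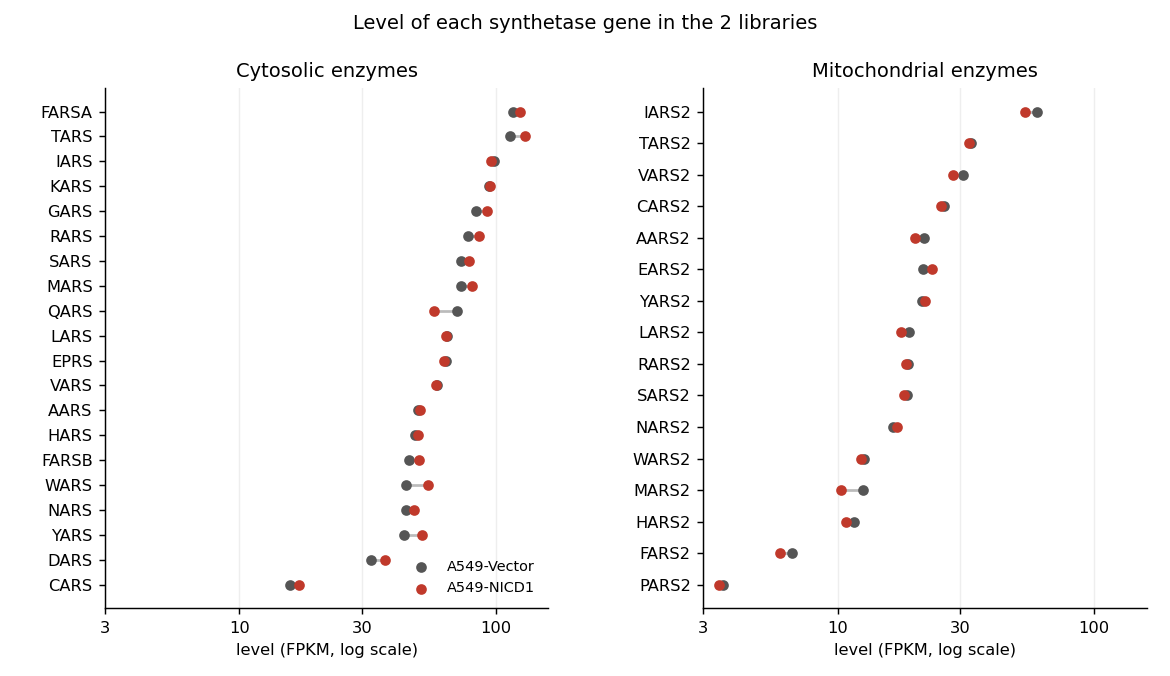
Level of each gene in FPKM (horizontal axis, log scale) in A549-Vector (grey) and A549-NICD1 (red), for cytosolic (left) and mitochondrial (right) enzymes, 1 library each. Levels differed far more between genes, from 3.57 FPKM for PARS2 to 117 FPKM for FARSA in A549-Vector, than between the libraries.

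Promoter sequence was examined for the response element bound by ATF4, a known shared control element of synthetase genes. RefSeq promoter windows (GRCh38.p14, from 250 bases before to 50 bases after a gene's start) were found for 30 of the 36 genes, and none was found for DARS, LARS, VARS, YARS, AARS2 and VARS2. The motif TGATGNAAN, searched on both strands, occurred in 7 of 16 cytosolic genes and in 1 of 14 mitochondrial genes, against 4.45% of all 27305 genes in the table and 3.61% of its 35116 windows. Of the 12 cytosolic genes commonly listed as ATF4 targets 10 had a window, and these held all 7 cytosolic matches. The 6 other cytosolic genes with a window had 0. The matches are printed with their flanks, 5′ to 3′ on the strand of the gene. The motif or its reverse complement is in capitals, to show how alike the elements are.
AARS: ttttctcgcaGTTGCATCAgccaagttag
CARS: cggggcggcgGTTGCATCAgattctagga
IARS: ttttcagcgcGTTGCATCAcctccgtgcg
MARS: gccggttccgGTTGCATCAgcgagggatt
TARS: gcgcctttcgATTGCATCAgctggtccag
GARS: ttacgcggcgATTTCATCAtgctccgagc
NARS: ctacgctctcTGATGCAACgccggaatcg
YARS2: tccacactgcTGATGGAAAaattaagttt

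AARS, CARS, IARS and MARS held the same 9 letters, and NARS, asparaginyl-tRNA synthetase, held them on the opposite strand. Counted from the gene's start, the first capital lay at -188 in AARS (chr16:70289676-70289704, minus strand), -3 in CARS (chr11:3057408-3057436, minus), -14 in IARS (chr9:92293693-92293721, minus) and -5 in MARS (chr12:57488053-57488081, plus). It lay at 1 in TARS (chr5:33440956-33440984, plus), -34 in GARS (chr7:30594834-30594862, plus) and 14 in NARS (chr18:57621804-57621832, minus). In YARS2, the mitochondrial tyrosyl enzyme and the only mitochondrial gene with a match, it lay at -197 (chr12:32756076-32756104, minus).

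Cytosolic genes with and without the motif overlapped in fold change. The 7 genes with it ran from IARS at 0.02 and AARS at 0.08 to TARS, with a median of 0.18. The 9 cytosolic genes with a window but no match had a median of 0.14 and included both WARS, with the highest fold change, and QARS, with the lowest. A match is a description of these letters and not of binding.

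The list of 12 cytosolic genes commonly given as ATF4 targets had a median log2 fold change of 0.17, with all 12 above 0 under scaling and 10 counting intervals wholly above 0. The other 8 cytosolic genes had a median of 0.12, with 7 above 0 and 6 intervals wholly above 0. Of all genes tested, not matched for level, 48.9% were above 0 and 28.4% had intervals wholly above 0. Without scaling EPRS, IARS, LARS and VARS fell below 0. The intervals of AARS, CARS and EPRS among the 12, and of HARS and KARS among the 8, would then no longer lie wholly above 0.

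Mitochondrial synthetase genes were expressed at lower levels than their cytosolic counterparts, except for the cysteine pair. The median level was 18.9 FPKM with the vector and 18.3 FPKM with NICD1, against 64.1 and 60.4 FPKM for the cytosolic genes, so that the cytosolic median level was the lower in A549-NICD1 although most single genes were higher. IARS2, the isoleucyl enzyme, was the highest mitochondrial gene, at 60.0 FPKM with the vector and 53.8 FPKM with NICD1, which is -0.10 on the log2 scale (interval -0.14 to -0.06). PARS2, the prolyl enzyme, was the lowest, at 3.57 and 3.46 FPKM. CARS2, the cysteinyl enzyme, lay nearest to 0 in fold change, at 26.1 and 25.2 FPKM and 0.01, as did IARS among the cytosolic genes, at 98.3 and 95.7 FPKM and 0.02.

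MARS2, mitochondrial methionyl-tRNA synthetase (chr2:197705369-197708387, plus strand), had the lowest fold change of the mitochondrial genes. It was at 12.6 FPKM with the vector and 10.3 FPKM with NICD1, which is -0.24 on the log2 scale (interval -0.34 to -0.14). Over all 36 genes it could not be ranked against QARS at -0.23, since a pseudocount of 1 FPKM gave -0.22 for MARS2 and QARS was still at -0.23. Under scaling IARS2 and VARS2 (valyl, -0.07) were the other mitochondrial genes with intervals wholly below 0. Intervals wholly above 0 belonged to EARS2 (glutamyl), NARS2 (asparaginyl) and YARS2, at 0.17, 0.11 and 0.10. EARS2 was at 21.5 FPKM with the vector and 23.3 FPKM with NICD1, and was the only mitochondrial gene above the third quartile of all genes tested. The remaining 10 mitochondrial genes had intervals that held 0 under scaling.

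Enzymes for the same amino acid were set side by side in 17 pairs, in which EPRS and FARS2 each stood 2 times. The cytosolic gene had the higher log2 fold change in 16 pairs, with a median difference of 0.15. The widest differences were in the methionine pair (0.43), the tryptophan pair (0.31) and the phenylalanine pairs (0.29 for FARSB and 0.25 for FARSA, each against FARS2 at -0.11). EPRS and EARS2, for glutamate, were the exception, with EARS2 higher by 0.14 (-0.14 as cytosolic minus mitochondrial). Over all 17 pairs the median ratio of cytosolic to mitochondrial level was 3.44 in A549-Vector and 3.99 in A549-NICD1. By level the cytosolic gene was the higher in 16 pairs in both libraries. The cysteine pair was the exception, with CARS at 0.603 times the level of CARS2 in A549-Vector and 0.677 times in A549-NICD1.

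Because level differs between the compartments, all genes of like level were taken as a further background. Among 4662 genes within the range of the cytosolic genes the median log2 fold change was 0.03 and 56.9% were above 0. Among 8922 genes within the range of the mitochondrial genes it was -0.0040, with 49.1% above 0. The cytosolic median of 0.16 thus lay 0.13 above that of genes of like level, and the mitochondrial median 0.02 above its own.

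Some of these genes share sequence or exons with others. SARS2 shared 70.0% of the 100-base windows of its longest coding transcript with another annotated coding gene, AC011455.2, so reads of SARS2 cannot be assigned with certainty. VARS2 had 22.0% of its exon bases under GTF2H4, HARS2 15.8% under HARS and ZMAT2, and MARS 12.4% under ARHGAP9 and DDIT3, which lie on the opposite strand from MARS. GTF2H4 lies on the same strand as VARS2 and ZMAT2 on that of HARS2, whereas HARS lies on the opposite strand from HARS2. The study describes its sequencing as strand-specific, which bears on overlaps between opposite strands, but how strand was used in counting is not given. DDIT3 was at 4.36 FPKM with the vector and 8.75 FPKM with NICD1 and MARS at 73.1 and 80.5 FPKM, and the part of the MARS overlap in the value of MARS was not tested. No window of any cytosolic synthetase occurred in a transcript of another gene.

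The amino acid response genes, which include known ATF4 targets and amino acid transporters, were set beside the synthetases. Of 28 genes listed, 26 passed the filter, with a median log2 fold change of 0.12, 19 above 0 and 9 at or above 0.25 against 10.3% of all genes tested. ATF4 itself was at 241 FPKM with the vector and 250 FPKM with NICD1, which is 0.11 on the log2 scale. The other genes of the list lay on both sides of this value, among them PHGDH, the first enzyme of serine synthesis, at -0.01, and PSPH, the last, at -0.15. The highest were DDIT3 and CHAC1. DDIT3, which encodes the stress factor CHOP, had a log2 fold change of 1.05 (interval 0.82 to 1.31). CHAC1, a glutathione-degrading enzyme, went from 1.65 to 4.05 FPKM, which is 1.30 on the log2 scale.

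Transporters of large neutral amino acids were also above the limit of 0.5. SLC3A2 went from 66.7 FPKM with the vector to 103 FPKM with NICD1, which is 0.68 on the log2 scale, and SLC7A5, which forms a heterodimer with SLC3A2, from 42.2 to 59.3 FPKM, which is 0.55 on the log2 scale. CEBPB, a C/EBP transcription factor, went from 6.99 to 11.0 FPKM, which is 0.70 on the log2 scale. Asparagine synthetase (ASNS), ATF5, SESN2 and SLC7A1 lay between 0.34 and 0.37. In the other direction DDIT4 was at -0.38, VLDLR at -0.48 and SLC38A2 at -0.28, which made 3 of 26 at or below -0.25 against 14.0%. The amino acid response genes that passed the filter ran from VLDLR at -0.48 to CHAC1 at 1.30, and the synthetase genes from -0.24 to 0.33.

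Genes for tRNA export and cytosolic elongation stayed near 0. Over these 7 genes the median log2 fold change was -0.01. XPOT, the nuclear export receptor of tRNA, was the highest at 0.07 and EEF1A2 the lowest at -0.12. In mitochondria, the 77 ribosomal protein genes that passed the filter had a median of 0.07, with 4 at or above 0.25 against 10.3% of all genes tested and 2 at or below -0.25 against 14.0%. The 13 translation factor genes had a median of 0.04, with 0 at or above 0.25 and 2 at or below -0.25. Among them TUFM, the mitochondrial elongation factor, was at 0.12 (164 and 171 FPKM), while the release factor gene MTRF1 was at -0.31 and the initiation factor gene MTIF3 at -0.26. The amidotransferase genes QRSL1, GATB and GATC, which complete mitochondrial Gln-tRNA, were at 0.15, 0.03 and -0.03.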

How the data were processed

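PolyA RNA of 1 A549-NICD1 and 1 A549-Vector culture, grouped by genotype label, was sequenced. The authors deposited 1 value per gene, treated as FPKM because the values were whole reads divided by depth and length. Per the labels' processing notes Bowtie2, HTSeq and hg38 were used. Versions and annotation are not given in the sources used here. Of 19225 rows, 27 whose names had turned into date numbers were dropped.

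The depth ratio, 1.00153, was the commonest ratio of values, and depths were those that made gene lengths whole. All 16181 genes above 0 in both libraries gave whole read pairs (relative tolerance 3e-09 plus 1e-09 FPKM). Large read numbers were allowed, so nearly any ratio fits some pair and this count alone is no check. At the depth found, 98.5% of these genes also gave a whole length, with multiples allowed. The read pairs are minimums, since common multiples fit as well, which widens intervals. The log2 fold change used FPKM plus 0.1, which understates low genes, after the libraries were scaled with the trimmed mean of their log ratios (30% of ratios and 5% of levels trimmed at each end, factor 0.962). All 36 members passed the filter of 1 FPKM in either library. Calls used 0.25. No test could be run with 1 library per group. Scripts (Python 3.11.15, SciPy 1.17.1) were tested on simulated data. Gene positions and overlaps came from GENCODE on GRCh38.

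Members and lists were chosen with earlier results of these data known. Named were members at or beyond 0.25, the highest, lowest and nearest to 0 per compartment, the widest pairs, listed genes at or beyond 0.5, ATF4, DDIT3, XPOT, TUFM and the scaffold genes. Other genes were named after their values were seen. Single results on items not reported here were left out.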

Additional observations from a re-analysis of the deposited data

How the results depend on the processing

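Scaling was the choice that mattered most. With the deposited values unscaled, 1 cytosolic gene (WARS) was at or above 0.25 in place of 2, 1 cytosolic (QARS) and 1 mitochondrial gene (MARS2) were at or below -0.25 in place of 0, and 3 mitochondrial genes were above 0 in place of 9. The medians were then 0.10 and -0.04, while their difference stayed at 0.15. Of the 36 genes, 10 changed sign without scaling, all of them within 0.06 of 0, and 13 moved outside their counting interval. At a limit of 0.5, 0 cytosolic genes were called in place of 2. Centring on the median ratio called 3 cytosolic genes, with TARS. Pseudocounts of 0.01 and 1 FPKM left every gene inside its counting interval with its sign, and without a filter on low values the medians of the members were the same. No paired analysis was possible because the groups hold 1 library each. The depth limits FARS2 and PARS2 most, with 271 to 414 reads at least, and the variation between cultures is not known.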
